A study of Oryza sativa with 6 samples.

Results

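The long-arm parts of rice Chr1 and Chr5 that hold an ancient duplication shared by these chromosomes were examined for G-quadruplexes (G4s) that were called under 1 cation only. Members were IP-G4s of the K+-specific or the Na+-specific list, that is, G4 peaks pulled down by the BG4 antibody, whose midpoint lay between 23 and 42.2 Mb of Chr1 or between 17 and 28.9 Mb of Chr5 on the MSU v7.0 genome. This gave 1910 of the 25509 specific IP-G4s of the genome, with 1129 on the Chr1 long arm and 781 on the Chr5 long arm. The bounds were set on position alone, without any measured value. The DNA came from WT rice seedlings and had been fragmented, denatured and reassociated in PEG200 with KCl (K+PEG) or with NaCl (Na+PEG) before BG4-DNA-IP-seq, immunoprecipitation with the BG4 antibody followed by sequencing. Each condition had 2 replicates, and 2 libraries of input DNA without antibody served as control. The paper names KCl or NaCl for the folding step only. Its buffers of antibody incubation and washing are given with KCl, without stating whether the Na+PEG samples had the same. The assay reports folding of naked DNA in vitro, not in the seedling.

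G4s are stacks of guanine quartets that form where a strand holds several runs of guanines, and a monovalent cation sits between the quartets. K+ usually stabilises them better than Na+, and PEG mimics the crowding of the cell. Rice descends from a grass ancestor whose genome was doubled before the cereals split, and Chr1 and Chr5 carry a large block of that doubling. Many genes of the long arms therefore exist as a pair, with a copy on each chromosome, while the DNA between the genes has since been replaced by other insertions. The arms lie outside the centromeres, whereas the rest of each chromosome used for comparison holds the centromere, the DNA around it and the short arm. This rest also holds the distal end of the long arm beyond the outer bound, 1.04 Mb on each chromosome.

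A K+-specific IP-G4 is taken here as a segment shared by both K+PEG replicates that overlaps no segment shared by both Na+PEG replicates. The reverse holds for a Na+-specific one. The paper does not state how the specific lists were made. The lists hold positions only, so that no member has a value in a single library. The lists of single libraries at hand held only 864 to 874 peaks each and ended between 5.84 and 8.02 Mb of Chr1, short of both arms. The paper reports far more peaks per library, so that these lists were incomplete. The spread behind every test is therefore the spread between windows of 1 Mb along the chromosome (19 and 12 windows in the arms of Chr1 and Chr5, 24 and 18 in the rest), and not the spread between libraries. Neighbouring windows of 1 genome are not independent replicates.

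The Chr1 long arm held 768 K+-specific and 361 Na+-specific IP-G4s, and the Chr5 long arm held 500 and 281. The density of K+-specific IP-G4s was 40.0 per Mb (95% Poisson interval 37.2 to 42.9) on the Chr1 arm and 42.0 per Mb (38.4 to 45.9) on the Chr5 arm. The rate ratio of Chr1 to Chr5 was 0.952 (95% interval 0.787 to 1.15), and the quasi-Poisson regression over windows gave an adjusted p of 0.731. The arms were thus not told apart in K+-specific density, although the interval leaves room for a difference of either sign. Na+-specific IP-G4s were sparser on the Chr1 arm, at 18.8 per Mb (16.9 to 20.8), than on the Chr5 arm, at 23.6 per Mb (20.9 to 26.5). Their rate ratio was 0.796 (0.657 to 0.965), with p = 0.0206 before and 0.0988 after Benjamini-Hochberg adjustment over 24 tests (quasi-Poisson regression, n = 73 windows), so this difference failed the correction. In windows, the Na+-specific density ranged from 13 to 27 per Mb with a median of 19 on the Chr1 arm and from 14 to 31 with a median of 23.7 on the Chr5 arm. The windows of the arms overlapped widely.

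**Figure D1:**
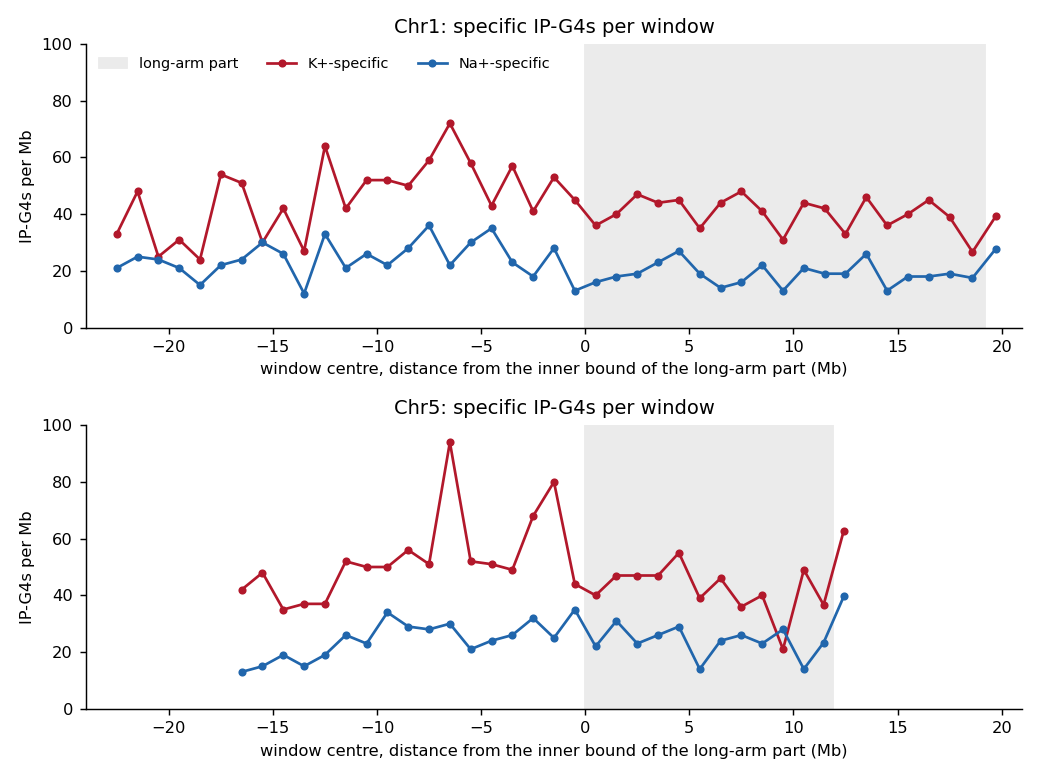
Number of K+-specific (red) and Na+-specific (blue) IP-G4s per Mb in windows of 1 Mb along Chr1 and Chr5, plotted by the distance of the window's centre from the inner bound of the long-arm part, with the long-arm part in grey. K+-specific density ranged from 26.7 to 48 per Mb on the Chr1 arm and from 24 to 72 per Mb elsewhere on Chr1. On Chr5 it ranged from 21 to 55 per Mb on the arm and from 35 to 94 per Mb elsewhere.

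The densities of both types were lower on both arms than in the rest of the chromosome, by ratios from 0.774 to 0.936, and 1 of these 4 contrasts passed the test. On Chr1, the Na+-specific density was 18.8 per Mb on the arm and 24.3 per Mb (22.4 to 26.3) in the rest, a rate ratio of 0.774 (0.659 to 0.910) with an adjusted p of 0.0431 by quasi-Poisson regression. The K+-specific density was 40.0 per Mb on the arm and 45.5 per Mb (42.8 to 48.3) in the rest, a ratio of 0.879 (0.752 to 1.03) with an adjusted p of 0.276. On Chr5, the K+-specific density was 42.0 per Mb on the arm and 53.3 per Mb (50.0 to 56.8) in the rest, a ratio of 0.789 (0.657 to 0.946) with p = 0.0115 before and 0.0687 after adjustment in the same regression (n = 73 windows). The Na+-specific density of Chr5 was 23.6 per Mb on the arm and 25.2 per Mb (23.0 to 27.7) in the rest, a ratio of 0.936 (0.780 to 1.12) with an adjusted p of 0.668. Of these 4 comparisons of density, only the Na+-specific one on Chr1 passed the threshold of 0.05, and it did not hold in all settings. Its adjusted p was 0.0945 with windows of 2 Mb and 0.0602 with arms trimmed by 1 Mb at both ends. Whether the arm-to-rest ratio itself differed between the chromosomes was tested as well. The ratio of ratios was 1.11 (0.877 to 1.42, adjusted p = 0.590) for K+-specific and 0.827 (0.648 to 1.06, adjusted p = 0.300) for Na+-specific IP-G4s in that regression (n = 73 windows), so that no difference between the chromosomes was shown.

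The contrasts depended on the choice of the rest. Against the 10 Mb just before each arm, a comparison chosen after seeing the data, K+-specific density on the arm was lower by a ratio of 0.755 on Chr1 (adjusted p = 0.00431) and of 0.706 on Chr5 (adjusted p = 0.00164), both by the same regression (n = 51 windows). In that comparison the Na+-specific ratio stayed called on Chr1, at 0.737 (adjusted p = 0.00431, n = 51 windows), and was 0.831 on Chr5 (adjusted p = 0.138). Against the outermost 5 Mb of the short-arm end, also chosen after seeing the data, both K+-specific ratios turned to above 1 and the Na+-specific call on Chr1 was lost. K+-specific IP-G4s numbered 32.2 per Mb there on Chr1 and 39.8 per Mb on Chr5, and the ratios were 1.24 (adjusted p = 0.137) and 1.06 (adjusted p = 0.758; n = 41 windows). For Na+-specific IP-G4s, the ratio on Chr1 was 0.887 (adjusted p = 0.620), and on Chr5 it turned to 1.46 (adjusted p = 0.0411), with 16.2 per Mb in the outermost 5 Mb (n = 41 windows). K+-specific density on the arms was thus lower than in the 10 Mb before them, whereas no difference from the short-arm ends was called. Gene content, repeats and the share of reads that map uniquely were not measured here, and their part in these differences was not tested.

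The Chr1 arm was also even along its length. Its K+-specific density per window had a mean of 40.1 and an SD of 5.86 per Mb (n = 19 windows), and the variance was 0.855 times the mean, where randomly placed items give a value near 1. In the rest of Chr1 the SD was 12.7 per Mb (n = 24 windows) and the variance was 3.54 times the mean. The Chr5 arm was less even, with an SD of 8.69 per Mb (n = 12 windows) and a variance of 1.80 times the mean, against an SD of 15.0 per Mb (n = 18 windows) and a ratio of 4.25 in the rest of Chr5. For Na+-specific IP-G4s, the variance was 0.772 and 1.17 times the mean on the arms of Chr1 and Chr5, and 1.60 and 2.17 times in the rest. These ratios are descriptions and were not tested. Taking both types together, 19 of 19 windows of the Chr1 arm lay below the median window of the rest of Chr1 (73.5 per Mb), as did 10 of 12 windows of the Chr5 arm for the rest of Chr5 (76.5 per Mb).

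**Figure D2:**
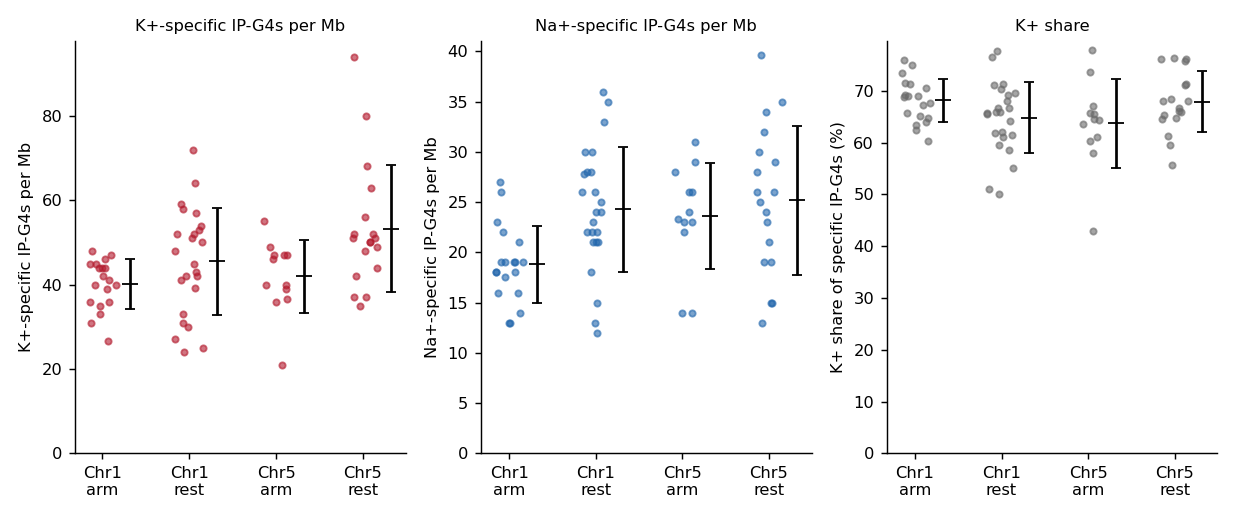
Each point is a window of about 1 Mb, grouped by region, for K+-specific IP-G4s per Mb, Na+-specific IP-G4s per Mb and the K+ share in percent; black bars give the mean ± SD across windows. The 2 arms had narrower ranges of K+-specific density than the rest of their chromosomes, and 1 window of the Chr5 arm stood below the others with a K+ share of 42.9%.

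The K+ share of the specific IP-G4s was 68.0% (95% Wilson interval 65.2 to 70.7) on the Chr1 arm and 65.2% (62.9 to 67.4) in the rest of Chr1. On the Chr5 arm it was 64.0% (60.6 to 67.3), and in the rest of Chr5 it was 67.9% (65.4 to 70.2). None of the contrasts between these shares passed the quasi-binomial regression over windows. The odds ratio was 1.20 (0.966 to 1.48, adjusted p = 0.276) for the Chr1 arm against the Chr5 arm, 1.14 (0.951 to 1.36, adjusted p = 0.325) for Chr1 arm against rest and 0.842 (0.687 to 1.03, adjusted p = 0.276) for Chr5 arm against rest (n = 73 windows). The difference between the last 2 contrasts had an odds ratio of 1.35 (1.03 to 1.77), with p = 0.0307 before and 0.123 after adjustment in the quasi-binomial regression (n = 73 windows), and so failed the correction. Genome-wide, the share was 65.6% (65.0 to 66.1), which lay between the shares of the arms.

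Along the Chr1 arm, the share changed little. In 3 equal parts of 6.4 Mb from the inner to the outer bound, it was 67.6%, 68.8% and 67.8%, with K+-specific densities of 42.0, 39.5 and 38.4 per Mb. The parts differed by less than their Wilson intervals, which spanned 62.8 to 72.0% in the first. By window, the share ranged from 60.4% to 75.9% with a median of 68.9%, and 0 of 19 windows fell below 60%. The highest share was found between 29 and 30 Mb (44 K+-specific and 14 Na+-specific) and the lowest in the outermost window between 41 and 42.2 Mb (32 and 21). The densest windows, between 27 and 28 Mb and between 36 and 37 Mb, held 72 specific IP-G4s each. The window between 32 and 33 Mb held the fewest per Mb, with 31 K+-specific and 13 Na+-specific IP-G4s.

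The Chr5 arm varied more in type. Its 3 equal parts had K+ shares of 63.8%, 65.9% and 62.1% and K+-specific densities of 45.4, 44.4 and 36.3 per Mb, whereas its Na+-specific densities were 25.7, 22.9 and 22.2 per Mb. The window between 26 and 27 Mb held 28 Na+-specific but only 21 K+-specific IP-G4s, which gave a K+ share of 42.9% (95% Wilson interval 30.0 to 56.7), and it was also the window with the fewest specific IP-G4s of this arm. The next window outward, between 27 and 28 Mb, held 49 K+-specific and 14 Na+-specific ones and had the highest share of the arm, 77.8% (66.1 to 86.3). These intervals do not overlap, but the windows were picked as the lowest and the highest, so that this is a description. Of 367 full windows of 1 Mb over the 12 chromosomes, 3 held more Na+-specific than K+-specific IP-G4s, and the window at 26 to 27 Mb of Chr5 had the lowest share of all. Its K+-specific IP-G4s had a median length of 269 bp and its Na+-specific ones of 239 bp, both above the genome-wide medians of 259 and 227 bp. Without any 1 window in turn, the odds ratio of the Chr1 arm against the Chr5 arm ranged from 1.12 to 1.26. The densest window of the Chr5 arm, between 21 and 22 Mb, held 55 K+-specific and 29 Na+-specific IP-G4s.

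The median lengths lay close together in all 4 regions. K+-specific IP-G4s had a median of 256.5 bp (quartiles 207 and 326) on the Chr1 arm and of 258 bp (215 and 332.5) on the Chr5 arm, beside 260 bp in the rest of each chromosome. Na+-specific IP-G4s were shorter throughout, with medians of 225 bp (200 and 273) on the Chr1 arm, 231 bp (200 and 280) on the Chr5 arm, and 231 and 227 bp in the rest of Chr1 and Chr5. The share of members at or above the genome-wide median of their type was 49.2% and 49.4% for K+-specific and 48.5% and 53.4% for Na+-specific IP-G4s on the arms of Chr1 and Chr5. Of the 8 length contrasts, none passed the quasi-binomial regression. For the Chr1 arm against the Chr5 arm, the odds ratio was 0.993 (0.789 to 1.25, adjusted p = 0.988) for K+-specific and 0.822 (0.598 to 1.13, adjusted p = 0.387) for Na+-specific IP-G4s (n = 73 windows).

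Long members were counted separately. Of the K+-specific IP-G4s, 45 (5.86%) on the Chr1 arm and 25 (5.0%) on the Chr5 arm were at least 500 bp long, beside 95 (8.68%) and 93 (9.68%) in the rest of Chr1 and Chr5. This threshold was chosen after seeing the data. The odds ratio against the rest was 0.655 (0.426 to 1.01, adjusted p = 0.127) on Chr1 and 0.491 (0.288 to 0.837, adjusted p = 0.0550) on Chr5, so that neither passed the adjusted threshold in the quasi-binomial regression. Of the Na+-specific IP-G4s, 2 on the Chr1 arm and 8 on the Chr5 arm reached 500 bp, beside 16 and 14 in the rest, which is 0.554% and 2.85% on the arms and 2.74% and 3.08% in the rest. The odds ratio of the Chr1 arm to the Chr5 arm was 0.190 (0.0362 to 0.999), with p = 0.0499 before and 0.127 after adjustment in the quasi-binomial regression, so that it failed the correction. At the short end, 138 K+-specific and 83 Na+-specific IP-G4s of the Chr1 arm, and 69 and 70 of the Chr5 arm, were shorter than 200 bp. The shortest peak in the available part of each library list was 200 bp long. Partial overlap of replicate peaks can give segments under 200 bp, but how each arose was not tested. A length of exactly 200 bp was found for 46 K+-specific (3.63%) and 33 Na+-specific (5.14%) members.

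**Figure D3:**
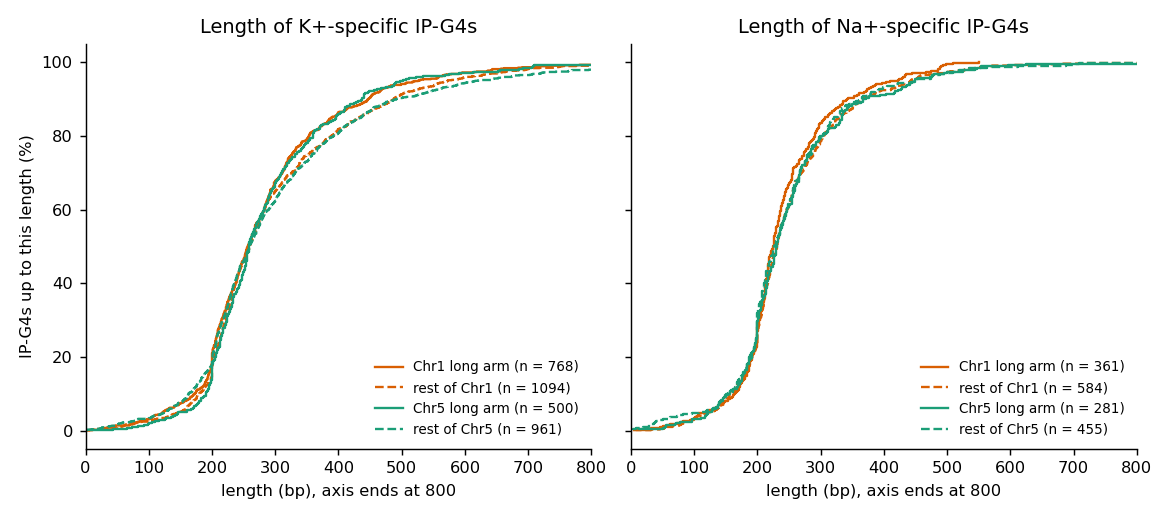
Cumulative distribution of the length in bp of K+-specific (left) and Na+-specific (right) IP-G4s, with arms as solid lines and the rest of the chromosome as dashed lines, Chr1 in orange and Chr5 in green; the axis ends at 800 bp. Just below 200 bp the K+-specific curves stand between 13.8% and 18% with no common order of arm and rest, and at 500 bp those of the arms run above those of the rest, a gap that did not pass the test.

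The longest K+-specific IP-G4 of the Chr1 arm lay on chromosome 1 from 24519397 to 24520574 (1178 bp), and the next from 29081149 to 29082027 (879 bp). On the Chr5 arm, the longest K+-specific ones lay on chromosome 5 from 27010034 to 27010864 (831 bp), with another K+-specific IP-G4 963.5 bp away, and from 19899274 to 19900078 (805 bp). The longest Na+-specific IP-G4s of the Chr1 arm reached only 550 bp (23702246 to 23702795) and 509 bp (34055699 to 34056207). Those of the Chr5 arm were 935 bp (28376717 to 28377651) and 625 bp (24063092 to 24063716), so that the longest member of the Chr5 arm was Na+-specific, while that of the Chr1 arm was K+-specific. For 4 of 4 of these Na+-specific IP-G4s the nearest specific IP-G4 was K+-specific, at distances from 679 to 7057 bp between midpoints. The same type was nearest for 4 of 4 of the K+-specific IP-G4s named above. K+-specific ones made up 68.0% of all members on the Chr1 arm and 64.0% on the Chr5 arm, and these neighbours were not tested. Whether any of the named IP-G4s lies in a gene, and whether copies of a duplicated gene pair both carry one, was not analysed here, since no annotation of this genome build was used.

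Specific IP-G4s of either type were spaced more widely on the arms. The median distance between the midpoints of adjacent ones was 11.6 kb (quartiles 3.98 and 23.3) on the Chr1 arm and 10.3 kb (3.62 and 21.9) on the Chr5 arm, beside 8.35 kb and 7.77 kb in the rest of Chr1 and Chr5. Distances under 5 kb made up 30.0% (95% Wilson interval 27.4 to 32.7) of 1128 on the Chr1 arm and 37.1% (34.8 to 39.4) of 1676 in the rest of Chr1. The odds ratio was 0.727 (0.586 to 0.902), with an adjusted p of 0.0431 by quasi-binomial regression over windows. On Chr5, they made up 31.4% (28.3 to 34.8) of 780 on the arm and 39.5% (37.0 to 42.1) of 1414 in the rest, with an odds ratio of 0.700 (0.547 to 0.897) and an adjusted p of 0.0431. Both calls were lost with windows of 2 Mb (adjusted p = 0.0945 for each, n = 39 windows) and with arms trimmed by 1 Mb at both ends (adjusted p = 0.0602 for each, n = 69 windows), while the odds ratios stayed between 0.686 and 0.731. The one on Chr5 was also lost with members of at least 200 bp only (adjusted p = 0.0647, n = 73 windows) and without the distal end of the chromosome (adjusted p = 0.0849, n = 71 windows). The arms themselves were not told apart, with an odds ratio of 0.934 (0.717 to 1.22, adjusted p = 0.731 by quasi-binomial regression). No difference in the arm-to-rest step was shown between the chromosomes (ratio of odds ratios 1.04, 0.748 to 1.44, adjusted p = 0.897 by quasi-binomial regression). A lower density alone lengthens the distances, so that this result is not independent of the densities. Against the outermost 5 Mb of the short-arm end, where 28.1% of distances on Chr1 and 33.2% on Chr5 were under 5 kb, the odds ratios were 1.09 and 0.916 (adjusted p = 0.758 for each by quasi-binomial regression, n = 41 windows), and the difference was no longer called. Against the 10 Mb just before each arm it stayed called, with odds ratios of 0.595 on Chr1 (adjusted p = 0.000673) and 0.656 on Chr5 (adjusted p = 0.00431) by the same quasi-binomial regression (n = 51 windows). Both of these other comparisons were chosen after seeing the data.

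Relative to their own mean, the distances were also less spread on the arms, a description that was not tested. The SD divided by the mean was 1.06 on the Chr1 arm and 1.04 on the Chr5 arm, against 1.18 in the rest of each chromosome and 1.14 over the genome, where a value of 1 belongs to random placement. Pairs closer than 1 kb numbered 90 (7.98%) on the Chr1 arm and 69 (8.85%) on the Chr5 arm, and made up 10.9% and 12.4% of the distances in the rest. At the other end, 67 of 1128 distances on the Chr1 arm and 31 of 780 on the Chr5 arm were longer than 50 kb. Such distances numbered 66 of 1676 in the rest of Chr1, 41 of 1414 in the rest of Chr5 and 1084 of 25497 over the genome. The longest on the Chr1 arm ran from 41384042 to 41514672 of chromosome 1, 131 kb between midpoints, and the longest on the Chr5 arm from 22366581 to 22465699 of chromosome 5, 99.4 kb. Both stretches were bounded by K+-specific IP-G4s on each side.

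**Figure D4:**
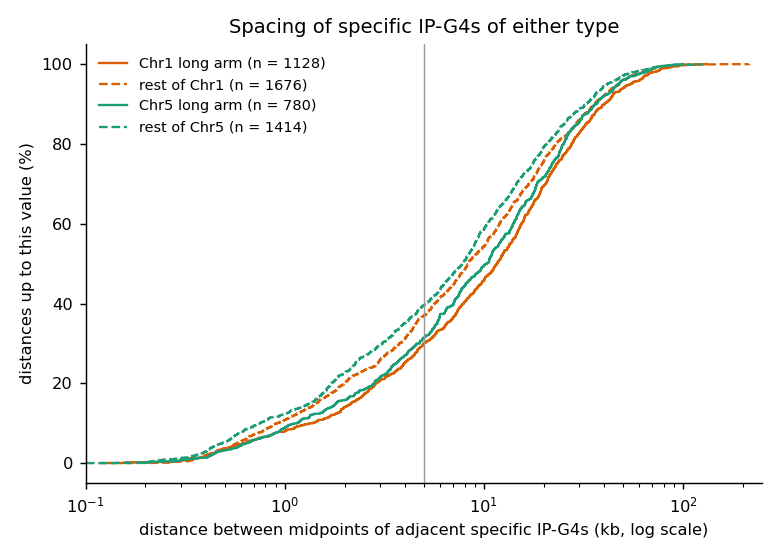
Cumulative distribution of the distance between midpoints of adjacent specific IP-G4s of either type, in kb on a log scale, for the arms (solid) and the rest of the chromosome (dashed) of Chr1 (orange) and Chr5 (green), with a grey line at 5 kb. The curves of both arms run below those of the rest at 5 kb, at 30.0% and 31.4% against 37.1% and 39.5%.

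The types were mixed along the arms about as their shares alone would give. Of adjacent pairs, 55.1% (95% Wilson interval 52.2 to 58.0) on the Chr1 arm and 54.0% (50.5 to 57.4) on the Chr5 arm were of the same type, where the K+ share would give 56.5% and 53.9%. In the rest the values were 56.3% beside 54.6% on Chr1 and 56.6% beside 56.4% on Chr5. The Chr1 arm had 514 pairs of K+-specific, 108 pairs of Na+-specific and 506 mixed pairs, and the Chr5 arm had 320, 101 and 359. Mixed pairs were not farther apart than pairs of the same type on the Chr5 arm, with median distances of 9.16 and 11.4 kb, whereas on the Chr1 arm the medians were 12 and 11.3 kb. These orders were not tested.

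Some stretches held only 1 type. The longest run of consecutive K+-specific IP-G4s on the Chr1 arm had 19 members between 34057031 and 34208903 of chromosome 1, over 152 kb, or 125 per Mb, where all specific IP-G4s of the arm numbered 58.8 per Mb. This stretch was picked for its run, so that its density is a description. Its members were between 43 and 757 bp long with a median of 298 bp and lay a median of 5.0 kb apart. It began just beyond the Na+-specific IP-G4 of 509 bp. On the Chr5 arm, the longest such run had 9 members between 25429494 and 25534884 of chromosome 5, over 105 kb. The longest runs of Na+-specific IP-G4s had 5 members on the Chr1 arm, between 25955375 and 26023214, and 6 on the Chr5 arm, between 19951176 and 20077776. For comparison, the longest run per whole chromosome ranged from 16 to 50 for K+-specific and from 6 to 9 for Na+-specific IP-G4s over the 12 chromosomes. An arm is only a part of its chromosome, so that its longest run is bound to be no longer than that of the whole.

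**Figure D5:**
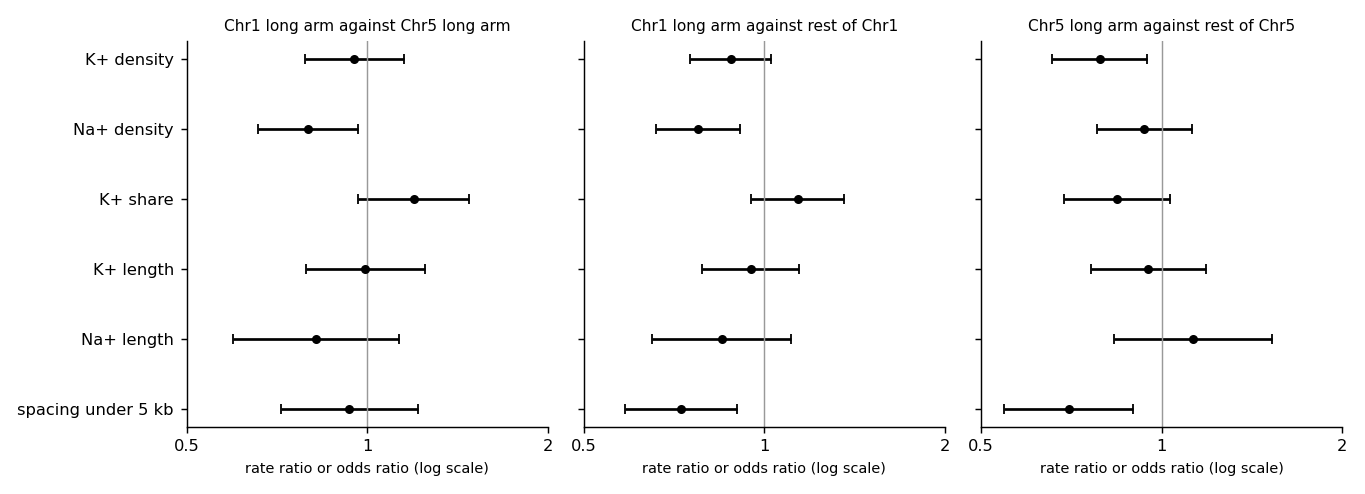
Rate ratios (densities) and odds ratios (K+ share, share of lengths at or above the genome-wide median, share of distances under 5 kb) on a log scale with 95% intervals from regressions over windows of 1 Mb, for the 3 direct contrasts. Intervals of Na+-specific density lay below 1 for the Chr1 arm against both the Chr5 arm and the rest, those of spacing for each arm against the rest, and that of K+-specific density for the Chr5 arm against the rest; after adjustment the K+-specific density of Chr5 (adjusted p = 0.0687) and the Na+-specific contrast of the arms (adjusted p = 0.0988, n = 73 windows) were not called.

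Across both arms, IP-G4s of the K+-specific type covered 362 kb, 1.16% of the sequence, and those of the Na+-specific type covered 157 kb, 0.505%. By arm, the K+-specific cover was 1.13% on Chr1 and 1.21% on Chr5, and the Na+-specific cover was 0.451% and 0.593%. The whole genome, measured up to the last specific IP-G4 of each chromosome, had 1.34% and 0.573%. In number, both arms together held 61.4 specific IP-G4s per Mb, beside 68.4 over the genome and 68.4 on the other 10 chromosomes. Of 24 tests, 3 passed the adjusted threshold and 6 had an unadjusted p under 0.05. The 3 were the wider spacing on both arms and the lower Na+-specific density on the Chr1 arm, each relative to the rest of the chromosome, and no contrast between the arms was called.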

How the data were processed

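Reads had been cleaned by the authors (Trim Galore), mapped to MSU v7.0 (BWA) and freed of duplicates (SAMtools). MACS then gave peaks per library over input, which bedtools intersected. The deposited lists hold start and end positions without any other value, and carry no read depth, so that no interval covers the spread between libraries. Poisson and Wilson intervals cover counting error only, while those of rate ratios and odds ratios also cover the spread between windows. Positions are given from 1. IP-G4s were assigned by their midpoint, and each chromosome was measured up to its last specific IP-G4. Counts per 1-Mb window were fitted by quasi-Poisson (densities) or quasi-binomial (shares) regression with a dispersion shared by the 4 regions and not below 1, two-sided, with Benjamini-Hochberg adjustment over 24 tests (Python 3.11.15, statsmodels 0.14.6, scipy 1.17.1). A partial window shorter than 0.5 Mb was joined to its neighbour. The fits were tested on simulated data with independent windows and much the same spread in all 4 regions. Windows here are neighbours and differ in spread between regions, so that the simulation cannot show how the fits do on these data. The regions named in the text were the 2 longest IP-G4s of each type per arm, extreme windows, the longest distances and the longest runs. The bounds that define the members used position and no measured value. Even so, the members, the measures and the alternatives were chosen with earlier results of these data known. Input libraries, genes, duplicated gene pairs and sequence features were not analysed here. For the last 3, no reference of this build was used.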

Additional observations from a re-analysis of the deposited data

How the results depend on the processing

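Of 238 alternative values for 24 results, 193 kept their direction and their side of the adjusted threshold, 10 lost the call, 13 gained it and 22 turned the direction. All values here are rate ratios or odds ratios. No paired analysis was possible because the lists of specific IP-G4s carry no replicate numbers, and for the same reason no library was left out. A stricter peak threshold was not applied, since the lists hold positions only. Gene positions and duplicated gene pairs were not run. An exact test of the difference between the chromosomes was not run either. The cause of a change was not tested except where stated.

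The 3 calls rest on adjusted p-values close to 0.05. With windows of 2 Mb, where fewer windows enter, they were lost for Na+-specific density (0.774) and spacing (0.727) on Chr1 and for spacing on Chr5 (0.700). With arms trimmed by 1 Mb they were lost at 0.785, 0.731 and 0.686, respectively. Spacing on Chr5 was also lost with IP-G4s of at least 200 bp (0.706) and without the distal end (0.720). When each of the 73 windows was left out in turn, an alternative chosen after seeing the data, the calls were lost in 18 cases for Na+-specific density on Chr1 (ratio from 0.756 to 0.791), in 18 for spacing on Chr1 (0.703 to 0.751) and in 23 for spacing on Chr5 (0.670 to 0.743).

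Lower K+-specific density on the Chr5 arm than in the rest (0.789) and lower Na+-specific density on the Chr1 arm than on the Chr5 arm (0.796) were called with windows of 0.5 Mb, with the spread estimated within each region, and with the exact test of total counts, which takes IP-G4s as independent. That test also called K+-specific density on Chr1 (0.879). The Na+-specific contrast of the arms (0.796) was called with both other choices of the rest as well, since the shared spread and the adjustment changed.

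With the rest limited to the outermost 5 Mb, chosen after seeing the data, K+-specific density turned to 1.24 on Chr1 and 1.06 on Chr5, and Na+-specific density turned to 1.46 on Chr5 and lost its call on Chr1 (0.887). Spacing turned to 1.09 on Chr1 and lost its call on Chr5 (0.916). The K+-specific length contrast turned to 1.11 on Chr1, 1.03 on Chr5 and 1.08 for the difference between chromosomes. That difference was called for Na+-specific density (0.608) and K+ share (1.93). With the rest limited to the 10 Mb before the arm, also chosen after seeing the data, K+-specific density was called on Chr1 (0.755) and Chr5 (0.706), and the difference between chromosomes turned for K+-specific length (1.03) and spacing (0.907).

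The remaining turns concern contrasts near 1 that were not called in any of these settings. K+-specific length of the Chr1 arm against the Chr5 arm turned to 1.04 with trimmed arms, 1.12 with IP-G4s of at least 200 bp and 1.18 with 500 bp as threshold, and against the rest of Chr1 it turned to 1.04 with IP-G4s of at least 200 bp. Its difference between chromosomes turned to 1.04 with trimmed arms, 1.23 with IP-G4s of at least 200 bp, 1.02 without the distal end, 1.09 at 300 bp and 1.33 at 500 bp. Na+-specific length on Chr5 turned to 0.956 at 300 bp and 0.923 at 500 bp. The difference in spacing between chromosomes turned to 0.975 with IP-G4s of at least 200 bp and to 0.998 without the distal end.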

Other observations

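Beyond the outer bound of the long-arm parts, the distal end of Chr5 held 65 K+-specific and 41 Na+-specific IP-G4s over 1.04 Mb, or 102 per Mb, whereas the distal end of Chr1 held 41 and 29 over 1.04 Mb, or 67.1 per Mb. The Chr5 end was thus denser than each window of the Chr5 arm, where the highest had 84 per Mb. The K+ share was 61.3% (95% Wilson interval 51.8 to 70.0) at the Chr5 end and 58.6% (46.9 to 69.4) at the Chr1 end, with intervals that reach the shares of the arms. At the Chr5 end, 47.6% of the distances between adjacent specific IP-G4s were under 5 kb and 22.9% under 1 kb, beside 30.4% and 5.80% at the Chr1 end. Na+-specific IP-G4s had a median length of 210 bp at the Chr5 end, and 39.0% of them were shorter than 200 bp, beside 24.9% on the Chr5 arm. These values come from 1 window per chromosome and were not tested.

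In the outermost 5 Mb at the short-arm ends, used above as another comparison, the K+ share was 60.3% (54.3 to 66.0) on Chr1 and 71.1% (65.5 to 76.1) on Chr5. The order of the chromosomes there was the reverse of that on the long arms, where the Chr1 share of 68.0% was above the Chr5 share of 64.0%. The intervals of the short-arm ends overlap, and the order at these ends was not tested by itself. The arm-to-end contrast did differ between the chromosomes by quasi-binomial regression, with an odds ratio of 1.93 (adjusted p = 0.0411, n = 41 windows). That comparison was chosen after seeing the data.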
